A study of Mus musculus with 8 samples.

Results

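Dual places are stretches of the genome where the lung DNA of mice challenged with house dust mite (HDM) as adults gave a MeDIP-seq peak and an hMeDIP-seq peak that shared at least 1 base. They were taken from the peak lists that set F0-Saline_F1-HDM against F0-Saline_F1-Saline (adult HDM comparison), as the MeDIP-seq peaks that meet an hMeDIP-seq peak, without those that also had a peak in all 4 remaining lists of the series. Of 63967 MeDIP-seq peaks, 4766 (7.45%) met an hMeDIP-seq peak, 949 of these were left out, and 3817 (5.97% of the MeDIP-seq peaks) were kept. All 6 lists together hold 329018 peaks. Since the listing of the peaks chose the places, their scores are given as a description only.

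The F0 dams were C57BL/6J mice that received 100 μg of HDM, or saline, before mating and through pregnancy and lactation. Their F1 sons were sensitized with HDM, or given saline, at 6 weeks of age, challenged on days 14, 18 and 21, and examined on day 23. The places described here come from sons of saline dams: F0-Saline_F1-HDM received HDM as adults and F0-Saline_F1-Saline received only saline. The remaining lists compare F0-HDM_F1-Saline with F0-Saline_F1-Saline (maternal HDM comparison) and F0-HDM_F1-HDM with F0-Saline_F1-HDM (double HDM comparison). Each group gave 1 library per assay from whole lung DNA pooled over mice of 3 dams, so the series has no replicates, no test between groups could be made, and a change in the DNA of a cell type and a change in the cells that make up the lung cannot be told apart. The depth of each library is unknown here, because the lists give no reads and the methods of the study state only 1 approximate read number, and since peaks do not measure cells the tissue label could not be checked against marker genes.

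DNA methylation (5mC) is set in mammals mainly on cytosines of CpG dinucleotides by the DNA methyltransferases. The TET enzymes oxidize 5mC to 5-hydroxymethylcytosine (5hmC), which can stay as a mark of its own or be removed on the way back to unmethylated cytosine. MeDIP-seq and hMeDIP-seq enrich DNA fragments that carry 5mC and 5hmC, and both read many molecules from many cells, so a place with both peaks need not hold both marks on the same molecule. The peak shape score used here measures how far the read coverage resembles a peak beside the control library, and it leaves unsaid in which direction a mark moved. HDM is a common indoor allergen that drives an eosinophilic, T helper 2 type inflammation of the airways.

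The sequences of 11 places were chosen to show dual places that reach coding exons, together with an imprinted intron and a non-coding exon. A run that reaches a coding exon can also hold other sequence, so its CpG sites need not be coding. Each run is 101 bases of the reference (GRCm38, + strand, 5′ to 3′) at the middle of the stretch that the MeDIP-seq and the hMeDIP-seq peak share, and CpG sites are in capitals. Lman2 encodes a cargo lectin of the secretory pathway, Serpinh1 the collagen chaperone HSP47, Zfp574 a zinc finger protein, Chrna4 a subunit of the nicotinic acetylcholine receptor, and Mylk the myosin light chain kinase of smooth muscle. Runx1, Irf8 and Gata3 encode transcription factors of blood and immune cells, and Stat2 encodes a transducer of interferon signals. Igf2r and H19 are imprinted genes.
Lman2, chr13:55351450-55351550: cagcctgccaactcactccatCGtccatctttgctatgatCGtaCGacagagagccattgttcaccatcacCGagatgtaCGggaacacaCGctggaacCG
Serpinh1, chr7:99348929-99349029: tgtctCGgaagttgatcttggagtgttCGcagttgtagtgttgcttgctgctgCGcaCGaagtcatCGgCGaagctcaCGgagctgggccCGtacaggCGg
Zfp574, chr7:25081289-25081389: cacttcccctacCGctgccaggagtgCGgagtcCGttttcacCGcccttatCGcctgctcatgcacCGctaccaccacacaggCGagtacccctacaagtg
Chrna4, chr2:181029067-181029167: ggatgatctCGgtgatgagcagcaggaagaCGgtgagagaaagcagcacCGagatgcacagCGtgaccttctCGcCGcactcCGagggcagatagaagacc
Runx1, chr16:92605923-92606023: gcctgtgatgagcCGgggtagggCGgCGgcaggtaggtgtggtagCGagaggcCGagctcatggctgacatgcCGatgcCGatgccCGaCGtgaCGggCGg
Irf8, chr8:120753584-120753684: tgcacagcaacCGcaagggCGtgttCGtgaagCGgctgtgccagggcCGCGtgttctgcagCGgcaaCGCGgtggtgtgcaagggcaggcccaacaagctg
Gata3, chr2:9858419-9858519: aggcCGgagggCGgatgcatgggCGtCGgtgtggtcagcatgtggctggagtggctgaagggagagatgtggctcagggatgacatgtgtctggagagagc
Stat2, chr10:128283299-128283399: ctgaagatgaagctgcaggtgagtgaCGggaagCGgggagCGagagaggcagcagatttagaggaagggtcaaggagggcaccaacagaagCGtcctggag
Mylk, chr16:34922142-34922242: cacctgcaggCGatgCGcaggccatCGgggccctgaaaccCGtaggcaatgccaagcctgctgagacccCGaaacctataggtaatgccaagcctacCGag
Igf2r, chr17:12688013-12688113: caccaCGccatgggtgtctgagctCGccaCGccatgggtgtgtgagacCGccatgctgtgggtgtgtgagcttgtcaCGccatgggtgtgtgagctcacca
H19, chr7:142576772-142576872: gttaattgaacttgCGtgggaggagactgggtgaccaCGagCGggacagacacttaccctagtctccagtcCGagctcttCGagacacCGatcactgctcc
The 11 runs held 4 to 11 CpG sites each, and the middle of some other named places held fewer, with 2 in Foxi1 and in Smad6 and none in Ptprf or at 1 of the Lrp1 places. Those in Lman2, Serpinh1, Zfp574, Chrna4, Runx1, Irf8, Gata3, Stat2 and Mylk reached coding exons, whereas the Igf2r run lay in an intron and the H19 run in an exon of its non-coding RNA. Lman2, Serpinh1, Zfp574 and Chrna4 were chosen for display after their values had been seen.

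Most dual places were weak MeDIP-seq peaks. Their MeDIP-seq score ran from 1.28 to 15.05 with a median of 1.50 (quartiles 1.37 and 1.73), which is close to the median of 1.52 in the 59201 MeDIP-seq peaks without an hMeDIP-seq counterpart. The hMeDIP-seq score at the same places ran from 1.28 to 15.7 with a median of 1.95 (quartiles 1.55 and 2.69) and was the higher of the pair in 2824 places (74.0%). The methods of the study state a strict false discovery rate for peaks, whereas the lists reach to an authors' p of 0.1, so a listed peak is not necessarily one that passed it. At an authors' p of 0.01 or less stood 276 places in MeDIP-seq (7.23%, against 9.53% of the whole list) and 1345 in hMeDIP-seq (35.2%, against 28.7% of the whole list), and 124 passed in both. At 1e-06 or less there were 48 (1.26%, against 1.68%), 177 (4.64%, against 3.38%) and 20. The scores of the 2 assays hardly ordered the places alike (Spearman rho 0.05 over 3817 places, which come from the same libraries).

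**Figure D1:**
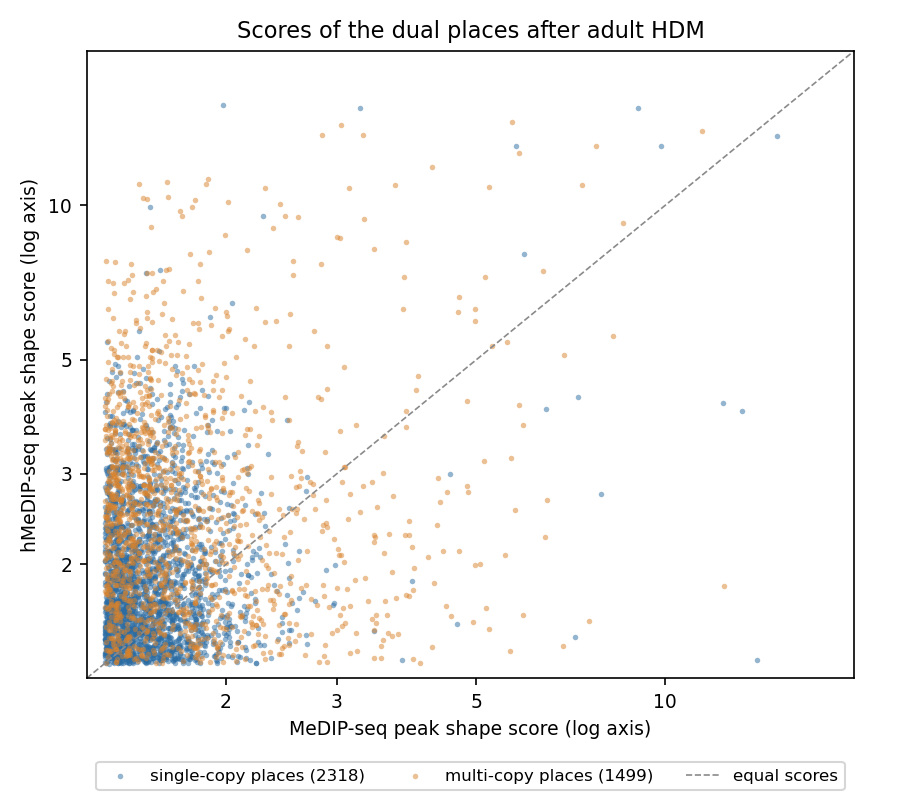
MeDIP-seq score (horizontal, log axis) against hMeDIP-seq score (vertical, log axis) of every dual place, with single-copy places in blue, multi-copy places in orange and a dashed line of equal scores. Most places lie at the low end of the MeDIP-seq axis (median 1.50) and 2824 of 3817 lie above the line.

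The peaks of the 2 assays mostly covered each other. The hMeDIP-seq peak was the longer, with a median of 710 bp against 387 bp for the MeDIP-seq peaks, and it covered the whole MeDIP-seq peak in 2314 places (60.6%). The peak centres lay a median of 158 bp apart. At the edge of the rule, 23 places shared 10 or fewer bases, with a median MeDIP-seq score of 1.83 and 1.11 CpG per 100 bp, and 28 MeDIP-seq peaks missed an hMeDIP-seq peak by under 10 bases, with a median score of 2.14 and 1.36 CpG per 100 bp. Both sides of the edge thus held fewer CpG sites than the bulk of the dual places.

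The dual places held more CpG sites than the other MeDIP-seq peaks of the same list. They had a median of 4.15 CpG per 100 bp (95% interval 4.08 to 4.20), or 16 CpG in a peak, and MeDIP-seq peaks without a counterpart 0.81 (0.81 to 0.81), or 3 in a peak. No CpG at all was found in 0.58% of the dual places and in 12.0% of the peaks without a counterpart, and long runs of 10 or more CA or TG in 4.43% and 24.0%. By the usual definition of a CpG island applied to the peak (GC above 50% and observed to expected CpG above 0.6), 33.8% of the dual places and 1.40% of the others were island-like. The intervals cover the counting error of the peaks only and no test between libraries was possible. The hMeDIP-seq peaks of the same comparison were CpG-rich whether they met a MeDIP-seq peak (3.42 per 100 bp) or not (3.48).

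The share of MeDIP-seq peaks that were dual places grew with their CpG content. Of 32238 MeDIP-seq peaks with under 1 CpG per 100 bp, 162 (0.50%) were dual places, and of 1880 peaks with 4 to 5 CpG per 100 bp, 992 (52.8%, interval 50.5 to 55.0). It reached 67.1% (63.9 to 70.1) at 5 to 6 CpG per 100 bp and was 62.2% (58.6 to 65.7) above that, where the intervals overlap. The 2 scores differed in how they moved with CpG among the dual places themselves. The median hMeDIP-seq score was 1.75 under 1 CpG per 100 bp, 1.78 at 1 to 2, 1.62 at 2 to 3, 1.65 at 3 to 4, 1.95 at 4 to 5, 2.56 at 5 to 6 and 3.12 at 6 or more, whereas the median MeDIP-seq score was 1.98 under 1 CpG per 100 bp and between 1.47 and 1.52 in the bins from 2 CpG up.

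**Figure D2:**
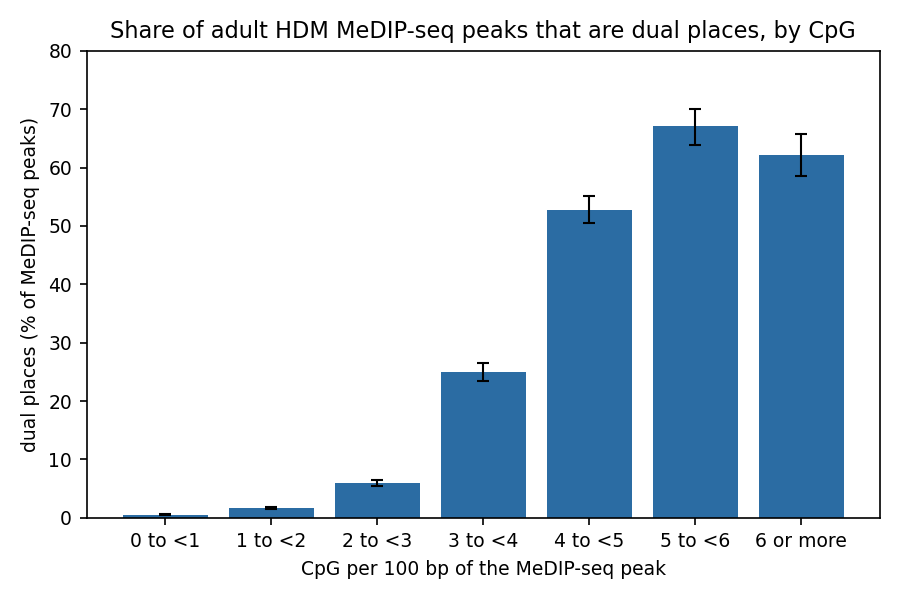
Bars give the percentage of MeDIP-seq peaks in the adult HDM comparison that are dual places, by CpG per 100 bp of the peak, and error bars the 95% Clopper-Pearson interval. The share is 0.50% in the lowest bin and 67.1% in the bin from 5 to 6.

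The dual places fell into 2 kinds by how often their sequence occurs in the genome. In 2318 of them under 50% of the 51-bp windows had another exact copy (single-copy places), and in 1499 (39.3%) at least 50% had (multi-copy places). The multi-copy share was 17.7% in MeDIP-seq peaks without a counterpart and 67.0% in the places left out because they were in all 6 lists. Both kinds were CpG-rich, with medians of 4.05 and 4.35 CpG per 100 bp. The hMeDIP-seq score was lower at the single-copy places (median 1.77) than at the multi-copy places (2.39), and of the 124 places with a p of 0.01 or less in both assays 107 were multi-copy. Reads from multi-copy DNA could come from any copy, so a peak there cannot be given to 1 position.

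Single-copy dual places lay mostly in the exons of genes, and more often in coding sequence than other MeDIP-seq peaks. Of the 2318, 62.4% (60.4 to 64.4) overlapped an exon and 55.0% (52.95 to 57.04) coding sequence, against 9.33% and 5.72% of the 48711 single-copy MeDIP-seq peaks without a counterpart. Introns held 20.9% against 46.6%, and the space between genes 16.7% against 44.1%. Among single-copy peaks with 4 to 5 CpG per 100 bp, coding sequence was overlapped by 63.1% of 700 dual places and by 28.7% of 561 peaks without a counterpart, so the difference in position was also seen at like CpG content. At the peaks that overlapped coding sequence, the longest annotated exon of a protein-coding gene was measured, untranslated stretches included. Its median length was 453 bp at single-copy dual places and 199 bp at single-copy peaks without a counterpart. It was 1 kb or more at 33.4% of the coding dual places (30.8 to 36.1) and at 18.9% (17.4 to 20.4) of the coding peaks without a counterpart.

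A transcription start lay within 2 kb of 31.2% of the single-copy dual places (29.4 to 33.2) and of 12.9% of single-copy peaks without a counterpart. Of these 724 dual places, 510 (70.4%) also overlapped coding sequence. The coding share was carried by weak MeDIP-seq peaks. Among the 50 single-copy dual places with a MeDIP-seq p of 0.01 or less it fell on 7 places (interval 5.82 to 26.7%), beside 2.52% (1.91 to 3.26) in the 2219 such peaks without a counterpart. Among the 563 with an hMeDIP-seq p of 0.01 or less it was 70.3% (66.4 to 74.1). It was lower again, 8 of 23 places (34.8%, interval 16.4 to 57.3), at an hMeDIP-seq p of 1e-06 or less. With a p of 0.01 or less in both assays 17 single-copy places were left, of which 11.8% were coding.

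**Figure D3:**
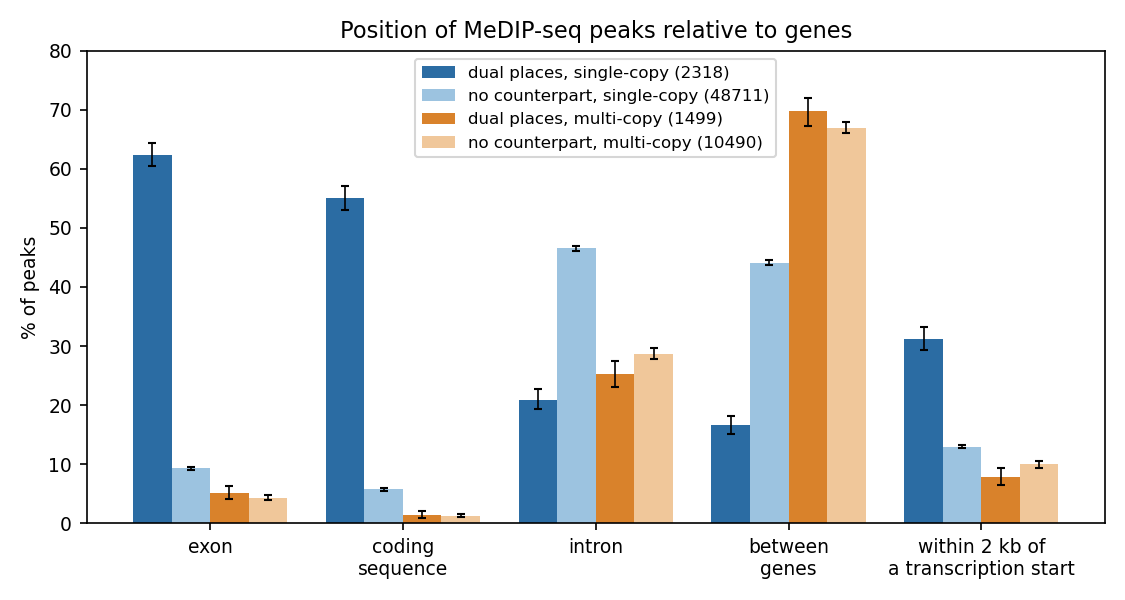
Bars give the percentage of MeDIP-seq peaks in each position, for dual places and for peaks without an hMeDIP-seq counterpart, single-copy in blue and multi-copy in orange, with 95% Clopper-Pearson intervals. Single-copy dual places are the set found mostly in exons (62.4%) and coding sequence (55.0%), while 69.7% of multi-copy dual places lie between genes.

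Dual places overlapped 2169 of 55450 annotated genes (3.91%) and 1808 of 21951 protein-coding genes (8.24%), and 585 of 21924 protein-coding genes (2.67%) had a transcription start within 2 kb of a dual place. The share rose with gene length, from 2.62% of protein-coding genes under 10 kb to 23.8% of those above 100 kb. Gene groups are therefore read against 8.24% and against the length of their genes. The genes with the most places were long or repeated loci. Gm20388, a predicted gene spanning 4435 kb, held 39 places, the predicted genes Gm37013, Gm37388 and Gm42416, which span the protocadherin cluster, 11 each, Mid1 10, and Gm26573, Fgfr2 and Dst, the gene of the cytoskeletal linker dystonin, 7 each. In Dst 5 of the 7 places overlapped coding sequence, with hMeDIP-seq scores there from 1.49 to 3.35. Lrp1, an endocytic receptor gene named after its values were seen, had 5 places, of which 3 were coding.

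Genes of the T helper 2 programme that carry the allergic response were overlapped in 3 of 20 cases, all of them transcription factors. Gata3, which directs T helper 2 differentiation, held a place in a coding exon on chromosome 2 from 9858277 to 9858661, with a MeDIP-seq score of 2.02 and an hMeDIP-seq score of 1.57. Nfatc1 held 3 places, the strongest in an intron with 1.77 and 1.40, and Nfatc2 held 1 in a coding exon with 1.31 and 2.55. No cytokine gene of that list, whose median gene spans 27.3 kb, was overlapped. None of the 14 genes of the alarmins and group 2 innate lymphoid cells, none of the 25 chemokines and chemokine receptors and none of the 12 regulators of NFAT were overlapped, where the median gene spans 18.6, 5.13 and 44.7 kb.

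Some genes of the other blood cell lists were overlapped as well. Runx1, which acts in T cell and blood development, held a place in a coding exon on chromosome 16 from 92605836 to 92606208 with 33 CpG sites, a MeDIP-seq score of 1.90 and an hMeDIP-seq score of 3.83. Irf8, needed for myeloid and B cell development, held a coding place on chromosome 8 from 120753447 to 120753821 (1.74 and 2.63). Ikzf1 (1.35 and 3.06) and Bcl6 (1.44 and 1.69), both repressors that shape lymphocytes, also had theirs in coding exons. Of the full lists, T cell signalling had 2 of 22 genes overlapped, B cell identity 2 of 14, granulocytes and mast cells 1 of 17 (Kit, the stem cell factor receptor, 1.32 and 2.21) and allergen and pattern receptors 1 of 15 (Irak4, a kinase of interleukin-1 and Toll-like receptors, 1.50 and 1.89). In these 4 lists the median gene spans 24.4, 22.1, 8.19 and 17.2 kb, in the same order. The Irak4 place also overlapped a coding exon of its neighbour Twf1. Of the interferon genes, with a median span of 15.6 kb, 4 of 16 were overlapped: Stat2 in a coding exon (1.92 and 2.11), Oasl1, Ifnar1 and Ifngr1. The Stat2 place lay 203 bp from the nearest start of an annotated Stat2 transcript, which need not be the main start of the gene.

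Lists of structural and signalling genes of the airway wall lay on both sides of the 8.24% of all protein-coding genes. Airway smooth muscle had 1 of 21 genes overlapped, Mylk, which held 3 places with MeDIP-seq scores from 1.38 to 1.44 and hMeDIP-seq scores from 1.61 to 2.64, of which 2 were coding. Collagen and matrix genes had 3 of 17: Col4a2, a basement membrane collagen (1.48 and 1.93), Tnc, which encodes tenascin C (1.41 and 3.70), and Col23a1, a membrane collagen (2.35 and 1.32). Genes of TGF-beta signalling had 4 of 16, namely the inhibitory Smad6 (1.85 and 2.72), the shared mediator Smad4 (1.41 and 1.85), the receptor Acvr1 (1.30 and 2.10) and the ligand Bmp4 (1.28 and 2.58). Lung epithelial identity had 1 of 21 (Trp63, the factor of basal cells, 1.39 and 1.51), mucins and goblet cells 1 of 14 (Muc19) and motile cilia 3 of 18 (Dpcd, Ccdc40 and Cfap61). Each of these counts rests on a few genes. The median gene spans 118 kb in the smooth muscle list, 44.7 kb in collagen and matrix and 76.3 kb in TGF-beta signalling. It spans 5.54 kb in lung epithelial identity, 27.4 kb in mucins and goblet cells and 62.4 kb in motile cilia.

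Genes of the methylation machinery held dual places themselves. Of 18 genes 4 were overlapped: Tet3, which oxidizes 5mC (1.66 in MeDIP-seq and 1.84 in hMeDIP-seq), Dnmt3l, the cofactor of de novo methylation (1.77 and 1.61), Dnmt1, the maintenance methyltransferase (1.65 and 1.37), and Dnmt3a, a de novo methyltransferase (1.55 and 1.32). The Dnmt3a place lay 50 bp from an annotated start of the gene. The median gene spans 26.3 kb in this list, 58.7 kb in the histone methylation list and 33.9 kb in the imprinted list. Histone methylation genes had 4 of 16 overlapped: Kmt2d (2.01 and 2.62) and Kmt2a (1.30 and 1.89), which methylate lysine 4 of histone H3, Nsd1 (1.71 and 1.60) and the demethylase Kdm6b (1.36 and 1.96). Imprinted genes had 4 of 24: Igf2r in an intron (1.70 and 3.35), Meg3 122 bp from a start (1.55 and 1.56), Rasgrf1 in a coding exon (1.48 and 1.68) and H19 in an exon (1.41 and 1.98).

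Synaptic adhesion and receptor genes had 7 of 20 overlapped, in a list whose median gene spans 1330 kb. Of the 26 candidates that the study selected on these samples, 7 were overlapped (26.9%), which is not independent of the data. They were Luzp2 (3.03 and 3.63), Asmt, the last enzyme of melatonin synthesis (1.63 and 4.29), Dpcd, Kcnh1 (1.35 and 3.53), Foxi1, the factor of airway ionocytes (1.32 and 2.13), Col23a1 and Muc19 (1.29 and 3.73). The Luzp2 place and the Kcnh1 place lay in introns, with 87.2% and 77.2% of their windows in exact copies, and all windows of the Muc19 place had exact copies. Of the 8 airway genes measured as mRNA, Mylk alone was overlapped.

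Some gene families were picked out after their values were seen and get counts only. Of 22 protocadherin beta genes, which encode neuronal adhesion proteins and have a single large exon, 9 held a place in their own exon. Of 403 Zfp zinc finger genes 38 (9.43%) were overlapped, 32 of them in an exon, among them Zfp574 (2.17 and 4.14) and Zfp628 (1.99 and 2.77). Of 15 axonemal dynein heavy chain genes, with a median span of 239 kb, 6 were overlapped and 4 had a place in an exon. The 39 Hox genes held no dual place and the 1406 olfactory receptor genes 3, where the median gene spans 3.49 and 5.50 kb.

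**Figure D4:**
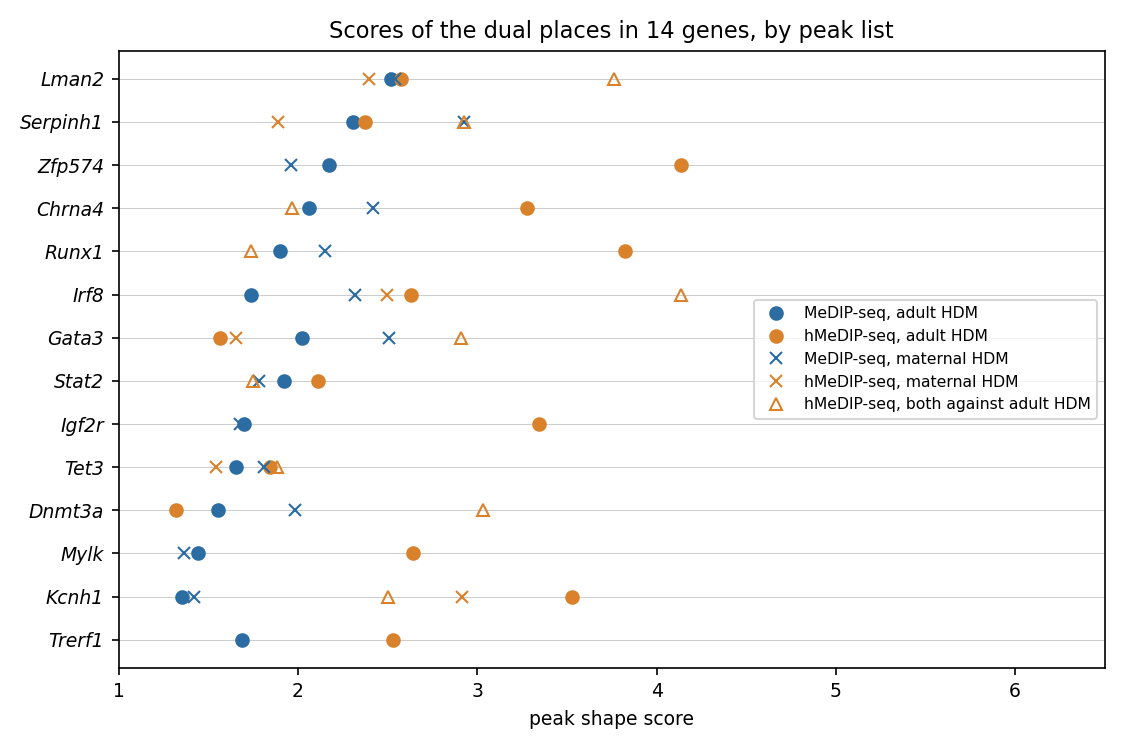
Peak shape score (horizontal) of the dual place in 14 genes (vertical), with filled circles for the adult HDM lists, crosses for the maternal HDM lists and an open triangle for the hMeDIP-seq list of the double HDM comparison, blue for MeDIP-seq and orange for hMeDIP-seq. A missing mark means that no peak was listed there, and none of the 14 places had a MeDIP-seq peak in the double HDM comparison.

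The strongest dual places lay at a ribosomal RNA locus, between genes and in introns. The highest MeDIP-seq score, 15.05, belonged to a place on chromosome 17 from 39845082 to 39845458 in an exon of the non-coding RNA Gm26917, with an hMeDIP-seq score of 13.6 and 41 CpG sites. It opened a group of 4 places up to position 39848443, where the annotation has the ribosomal RNA CT010467.1, with MeDIP-seq scores from 3.27 to 15.05 and hMeDIP-seq scores from 8.04 to 15.4. These places counted as single-copy here, although copies that are not in the assembly could not be counted. Ranked by the lower score of the pair, the next strongest place lay on chromosome 4 from 118547779 to 118548147 between Tmem125, 3734 bp away, and Cfap57 (11.44 and 13.97), with 92.5% of its windows in exact copies. The one after that in this ranking lay beside the predicted gene Gm10800 on chromosome 2 (9.85 and 13.1).

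Other strong places stood in groups. Mid1, a ubiquitin ligase gene at the boundary of the pseudoautosomal region, held 10 places in its introns over 20 kb at the end of the X chromosome, from 169983186 to 170003476, with MeDIP-seq scores from 1.42 to 7.75 and hMeDIP-seq scores from 1.60 to 14.3. Its 3 places nearest to the chromosome end, with no CpG, had MeDIP-seq scores from 3.43 to 6.44 and hMeDIP-seq scores from 1.60 to 2.26. Of the 10 places in Mid1 only 2 were single-copy. Camk4, a calcium/calmodulin kinase gene, held 4 places in its introns on chromosome 18 (MeDIP-seq scores from 3.09 to 7.37, hMeDIP-seq scores from 3.09 to 14.5). All 4 were multi-copy, so their peaks cannot be given to Camk4 itself. In all, 823 places stood in 364 groups with gaps of at most 10 kb. A group of 10 weak places (MeDIP-seq scores of at most 1.83) lay on chromosome 2 from 83960646 to 83990940 around the predicted genes Gm13691 to Gm13697, and groups of 7 and 6 lay on chromosome 8 within Gm20388 (the larger beside the 5S ribosomal RNA gene n-R5s138), although none of the 180 annotated 5S ribosomal RNA genes was overlapped itself. In each of these groups the median share of windows with exact copies was 100%.

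The highest MeDIP-seq scores after Gm26917 met much lower hMeDIP-seq scores. On chromosome 17 from 13590376 to 13590682, in an intron of the non-coding RNA 2700054A10Rik, the score was 14.02 in MeDIP-seq and 1.30 in hMeDIP-seq, and in an intron of Tmem267 on chromosome 13 it was 13.2 and 3.98, with a single CpG in each. The reverse was found on chromosome Y from 90742595 to 90742935, where the highest hMeDIP-seq score (15.7) met a MeDIP-seq score of 1.98 over 19 CpG sites, with 19 bases shared. Of the protein-coding genes with a start within 2 kb, the strongest places belonged to the predicted genes Gm10800 and Gm21738, single-copy by the measure used here, and Gm10719 and Gm10720, whose windows all had exact copies. Among single-copy places in genes known by function and chosen after their values were seen, Lman2 (2.52 and 2.58) lay 14 bp from a transcription start, Mcm2, a subunit of the replicative helicase (2.30 and 2.52), 67 bp, and Tcf3, an E protein of lymphocytes (1.52 and 2.47), 8 bp. Each of these places overlapped a coding exon, and the start is that of an annotated transcript, which need not be the main start of the gene.

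Multi-copy places shared sequence with each other. Joined by shared 51-base words, 1544 of the dual places fell into 87 families, and the largest held 702 places on 21 chromosomes with a median of 99 copies each, the next 415 places on 21 chromosomes with 513 copies. In the larger family 74.6% lay between genes, and the median scores were 1.51 for 5mC (MeDIP-seq) and 2.42 for 5hmC. The palindrome TGACGTCA, the cyclic AMP response element, was searched on both strands in the central 300 bases and occurred in 150 places of that family (21.4%), in 4.32% of all dual places, in 0.65% of the single-copy ones and in 0.21% of MeDIP-seq peaks without a counterpart. CACGTG, an E-box, occurred in 13.3% of single-copy dual places and 7.11% of single-copy peaks without a counterpart. Both motifs contain a CpG, and these 2 sets differed in CpG content (medians of 4.05 and 0.81 per 100 bp). The motif shares were not compared at like CpG content. Motif matches are letters of the reference and not measured binding.

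By chromosome, dual places were densest on chromosome 17 (1.99 per Mb) and chromosome 7 (1.89 per Mb) and sparsest on X (0.74 per Mb) and Y (0.44 per Mb). As a share of the MeDIP-seq peaks of the chromosome, however, X was the highest, with 9.60% of its 1312 peaks against 5.97% of all and 3.70% on Y. Of the 126 places on X 8 were single-copy, and of the 40 on Y 3.

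The rule counts the remaining lists, and 2024 places (53.0%) had a peak in 3 of them, 1243 in 2, 487 in 1 and 63 in none. These lists are not independent of the adult HDM lists: F0-Saline_F1-Saline is the control of the maternal comparison as well, and F0-Saline_F1-HDM is the control where F0-HDM_F1-HDM was searched. A peak was listed at 85.1% (84.0 to 86.2) of the places in MeDIP-seq and at 60.4% (58.8 to 61.9) in hMeDIP-seq for maternal HDM. For the double HDM comparison the shares were 11.4% (10.4 to 12.4) and 80.1% (78.8 to 81.3). The lists differ in length, so these shares cannot be compared directly. In the same order they hold 88438, 38333, 13338 and 89177 peaks. Of the single-copy dual places 46.0% had a peak in 3 remaining lists, against 2.07% of single-copy MeDIP-seq peaks without a counterpart. This difference is partly fixed by the rule and is a description only. The dual places were chosen for an hMeDIP-seq peak and the others for lacking one, while 2 of the remaining lists are hMeDIP-seq lists. Single-copy and multi-copy places differed most in the maternal hMeDIP-seq list (51.4% against 74.3%) and in the MeDIP-seq list of the double HDM comparison (5.48% against 20.5%).

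**Figure D5:**
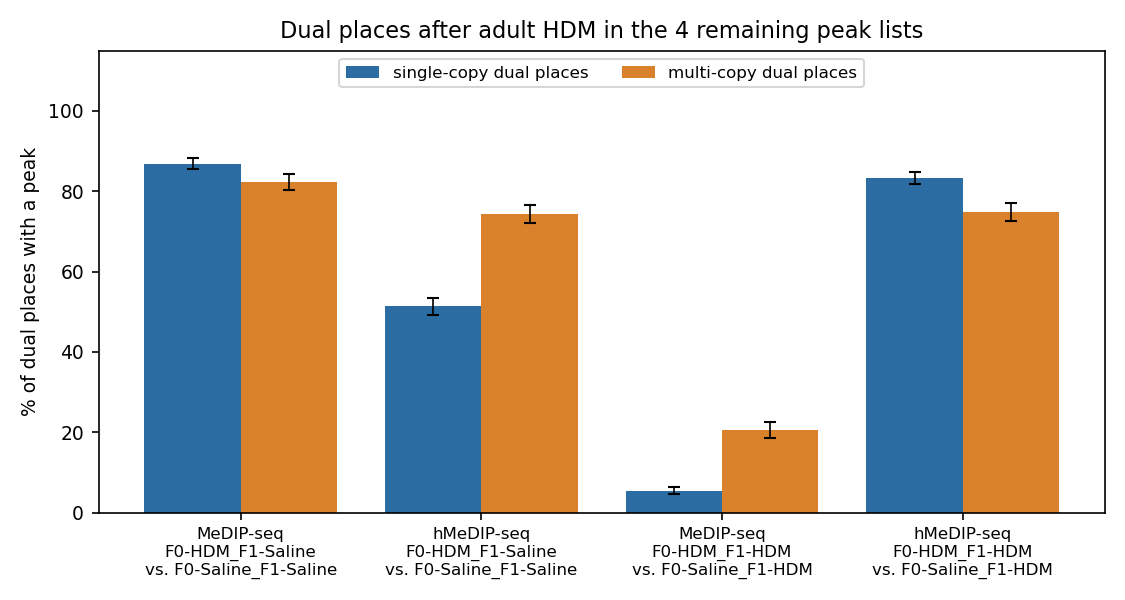
Percentage of single-copy (blue) and multi-copy (orange) dual places with a peak in each remaining list, with 95% Clopper-Pearson intervals. The bars are lowest in the MeDIP-seq list of the double HDM comparison (5.48% and 20.5%), which is also the shortest list, and no place can be in all 4 lists because of the rule.

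Several places in named genes had a MeDIP-seq peak with maternal HDM as well as with adult HDM. In Lman2 the MeDIP-seq score was 2.52 with adult and 2.54 with maternal HDM, and the hMeDIP-seq score 2.58 and 2.40, with 3.76 in the double HDM comparison. Irf8 had 1.74 and 2.32 in MeDIP-seq, 2.63 and 2.50 in hMeDIP-seq, and 4.14 in hMeDIP-seq of the double HDM comparison. Other places lacked the maternal hMeDIP-seq peak: Runx1 (3.83 with adult HDM), Igf2r (3.35), Chrna4 (3.28) and Zfp574 (4.14) had none listed there, while their MeDIP-seq scores were 1.90 and 2.15, 1.70 and 1.68, 2.06 and 2.42, and 2.17 and 1.96 with adult and maternal HDM. A missing peak can lie just under the limit of the list, which reaches to an authors' p of 0.1.

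The 63 dual places found in no other list were weaker and poorer in CpG than the dual places as a whole. Their median score was 1.38 in MeDIP-seq and 1.69 in hMeDIP-seq, with 3.27 CpG per 100 bp (2.21 to 3.54), and 25.4% (15.3 to 37.9) overlapped coding sequence. The strongest were a multi-copy place on chromosome 13 between Gm27025 and Gm25700 (2.12 and 2.69), a place in an exon of a Trerf1 transcript (1.69 and 2.53), in an intron of the adenylate kinase gene Ak7 (1.66 and 2.14), in an intron of Rsph3b (1.66 and 2.14), in Olfr1300-ps1 (1.54 and 1.68) and in a coding exon of the kinase gene Mast4 that lies in an intron of Cd180 (1.54 and 2.20). The places in Rsph3b and Olfr1300-ps1 were also multi-copy, with 79.8% and 85.9% of their windows in exact copies. An intron of the receptor phosphatase gene Ptprf held another (1.50 and 1.54), named after its values were seen. None had a score above 2.12 in MeDIP-seq or 5.07 in hMeDIP-seq.

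The dual places of maternal HDM, made with the same control libraries, numbered 5993 and are the set most like these. They held 3.94 CpG per 100 bp (3.89 to 3.97), 42.2% were multi-copy and 29.3% (28.2 to 30.5) overlapped coding sequence, against 4.15, 39.3% and 33.9% (32.4 to 35.5) of the adult HDM places. The places left out because they were in all 6 lists were stronger, with a median MeDIP-seq score of 3.07 and an hMeDIP-seq score of 2.81, and 13.9% (11.8 to 16.3) of them overlapped coding sequence.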

How the data were processed

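MeDIP-seq and hMeDIP-seq were run on lung DNA of 4 groups of F1 males (1 library for each group in each assay, 8 together). CASAVA 1.8.0, Bowtie 0.12.9 and FastQC are named in the processing notes of the submitters, and CLC Genomics Workbench, for peaks, in the methods of the study. The deposited lists, 1 per comparison and assay on GRCm38 (mm10), give each peak a shape score made by the authors' peak caller against the control library. The authors' p-value is the upper normal tail of that score in every row, up to 0.1. The first-named library of a list was taken as the one searched and the second as its control, from its label. The methods of the study state a false discovery rate for peaks, but the lists hold none and were used whole, and they give no reads per peak, so depth and counting error of a single peak are unknown.

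Peaks were joined by 1 shared base or more. GENCODE vM21 gave genes, exons and the transcription starts of every annotated transcript, with distances from the peak centre. RefSeq gave spans for 2 listed genes. Copies were counted as exact 51-bp matches on the assembled chromosomes. Shares have Clopper-Pearson and medians order-statistic intervals at 95%. Overlaps equalled an exhaustive search in 300 of 300 simulated cases and copy numbers in 40 of 40. The members, gene lists and alternatives were chosen with earlier results of these data known. Named were the 12 places with the highest lower score of the pair, the 3 highest in each assay, the 8 genes with most places, the 6 strongest places in no remaining list, candidates of the study, up to 4 genes per list, and up to 6 protein-coding genes near a start, and any other gene is marked as picked with its values in view. Versions were numba 0.67.0, Python 3.11.15, scipy 1.17.1, pandas 2.3.3, matplotlib 3.10.9 and numpy 2.4.6. Reads were not analysed here.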

Additional observations from a re-analysis of the deposited data

How the results depend on the processing

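No paired analysis was possible because each group and assay has 1 library, and for the same reason no replicate could be left out. The number of dual places (3817) was 3285 with at least 50% of the shorter peak shared, 4766 with none left out, 3598 counted as hMeDIP-seq peaks and 3651 without X and Y. It was 2318 with single-copy peaks only, 124 and 20 at an authors' p of 0.01 and 1e-06 or less in both lists, and 63 without places in any remaining list. Genes overlapped (2169) numbered 34, 12 and 46 in the last 3 settings, and between 1668 and 2407 in the others. The median CpG per 100 bp (4.15) was 4.34 with 50% shared, 3.42 over the longer hMeDIP-seq peaks, 4.05 in single-copy peaks, 1.92 and 2.56 at the 2 thresholds of p and 3.27 without places in any remaining list. The share within 2 kb of a start (22.0%) was 31.2% in single-copy peaks, 11.3% and 35.0% at the 2 thresholds and 23.8% without places in any remaining list, and 15.2% and 36.2% with windows of 1 and 5 kb. The share overlapping a gene (62.5%) was 65.6% with 50% shared, 59.4% with none left out, 65.0% as hMeDIP-seq peaks, 64.5% without X and Y, 83.3% in single-copy peaks and 34.7% and 65.0% at the 2 thresholds. The share of single-copy places in coding sequence (55.0%), added after seeing the data, was 57.1%, 52.0% and 36.4% with 50% shared, with none left out and without places in any remaining list, and 11.8% of 17 and 0% of 5 places at the 2 thresholds. At the stricter thresholds the places left were less CpG-rich and mostly multi-copy (107 of 124 and 15 of 20). Coding overlap of single-copy places was low at a MeDIP-seq p of 0.01 or less. With an hMeDIP-seq p of 0.01 or less it was 70.3%, but at 1e-06 or less it was 34.8% of 23 places (interval 16.4 to 57.3).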
